A study of Mus musculus with 12 samples.

Results

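The nuclear genes of the mitochondrial respiratory chain were examined in primary hernia-associated fibroblasts (HAFs), cells grown from the lower abdominal muscle of Aromhum mice, a line that carries the human aromatase gene and so makes estrogen in its tissues. Members were chosen by symbol alone, as the Nduf genes of the a, b, c, s and v series, Sdha to Sdhd, the Uqcr genes, the Cox4 to Cox8 genes followed by a, b or c, and the Atp5 genes. The rule matched 82 of the 13233 listed genes. Of these, 78 were protein-coding and 4 were processed pseudogenes (Ndufb4c, Cox6c2, Atp5l-ps1 and Atp5l2-ps), and counts below are over the 78. By symbol, 37 belonged to complex I, 4 to complex II, 8 to complex III, 12 to complex IV and 17 to complex V. The annotation held 12 further symbols of this pattern, among them the muscle isoforms Cox6a2 and Cox7a1, which were not analysed here.

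RNA-Seq was done on 12 samples in 4 groups of 3, all from Aromhum fibroblasts harvested at 48 hours. Group V received the vehicles ethanol and DMSO. Group E received 10 nM 17β-estradiol (E2). Group EF received 10 nM E2 with 100 nM fulvestrant, an antagonist that blocks estrogen receptors and causes their degradation, and group F received 100 nM fulvestrant without E2. The controls carried the same aromatase allele, and the sources used here do not say how many animals gave the cells of a replicate. Replicates were numbered 1 to 3 in each group, and p-values of the treatment comparisons measure the spread between these samples. The fibroblast label held in the data, since 9 of 9 fibroblast markers were listed, none of 10 myogenic and none of 4 adipocyte markers was, and the summed normalized counts of the endothelial and leukocyte markers did not exceed 277 and 112. The fibroblast markers summed to 441148 to 566637 in the V and E samples and to 330723 to 395080 in the EF and F samples. Esr1, the estrogen receptor gene, is among them. In bulk samples, fewer cells of a type and less RNA per cell cannot be told apart.

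The respiratory chain moves electrons from NADH (through complex I) or succinate (through complex II) to ubiquinone, from there through complex III to cytochrome c and through complex IV to oxygen. Complexes I, III and IV pump protons across the inner membrane, and complex V, the ATP synthase, makes ATP as the protons flow back. All 4 subunits of complex II are nuclear, whereas the other complexes combine nuclear subunits with a few that the mitochondrial genome encodes. Cultured fibroblasts use this chain beside glycolysis to make ATP.

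The chain was expressed above the typical gene. Per kilobase of the principal transcript, the median member had 1400 normalized counts against 297.2 for all genes, and 70 of 78 members lay above the median gene. The medians ran from 1099 in complex I and 1141 in complex II through 1753 in complex III and 1927 in complex IV to 2152 in complex V. Atp5b, the catalytic beta subunit of ATP synthase, had the highest level, 7912 per kilobase. Cox6c (4618), Uqcrh (4228), Ndufa4 (3531) and Sdha (1476) led complexes IV, III, I and II. Ndufa4 is counted in complex I by its symbol, here and below, but is known as a subunit of complex IV. The lowest members of their complexes were Ndufs5 (69.1 per kilobase), Cox8b (80.7), Atp5s (163), Sdhc (386) and Uqcrfs1 (669). Cox8b is known as the heart and skeletal muscle form of its subunit. Ndufs5 shared 19.8% of its 100-base windows with other genes' transcripts, so its reads may be split among copies. Together the 78 genes took 0.385% to 0.497% of the listed total in a sample.

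The question of the treatment comparisons was whether the estrogen state of the cells changed the transcripts of the chain. Adding fulvestrant to E2 (EF minus E) changed 2 of the 78 members, both downward, at an adjusted p under 0.05 and a fold change over 1.2 (limma on log2 of the normalized count + 1, with the replicate number as a block). Over all genes 9.6% were called in this comparison, 4.62% lower and 4.97% higher. The members' count was thus below the share for genes at large. Of the members, 63 of 78 had a value below 0, with a median log2 change of −0.07 against 0.01 for all genes, and 12 reached an unadjusted p under 0.05 (27.3% of all genes did). The median difference was 0.001, −0.19 and −0.07 in replicates 1, 2 and 3, and 39 of 78 members were above 0 in replicate 1. The median was −0.04 without E replicate 2, −0.11 without EF replicate 1, −0.12 without replicate 1 and −0.03 without replicate 2. The change was lower in all 3 same-numbered pairs for 29 members (37.2%, against 23.6% of all genes) and higher in all 3 for 1.

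**Figure D1:**
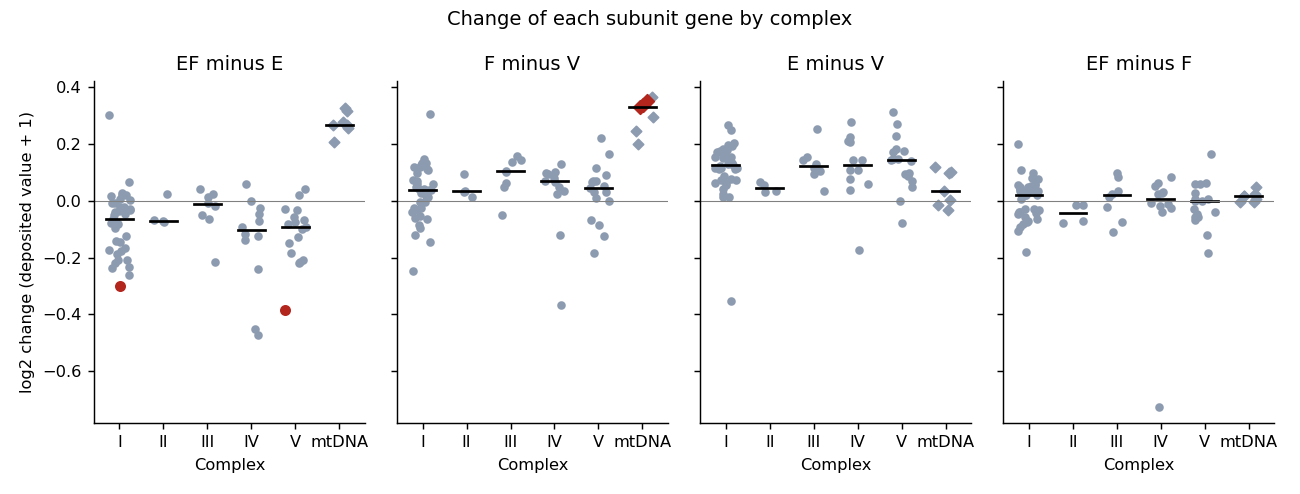
Log2 change of each of the 78 nuclear subunit genes by complex (circles) and of the 7 mitochondrially encoded genes (diamonds, mtDNA) in 4 comparisons. Bars are medians, red points passed adjusted p under 0.05 and fold change over 1.2, and only 2 nuclear members (EF minus E) and 3 mitochondrially encoded genes (F minus V) did.

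The first of the pair was Ndufa6 (ENSMUSG00000022450, chr15:82350140-82354322, minus strand, GRCm38), an accessory subunit of complex I. Its normalized counts were 1570, 1782 and 1547 in E and 1332, 1266 and 1377 in EF. The V samples had 1465, 1579 and 1356, and the F samples 1339, 1310 and 1494. Every EF sample lay below every E sample, whereas the V and F samples overlapped. The log2 change was −0.30 ± 0.08 (SE) for EF minus E (adjusted p = 0.0348, lower in 3 of 3 pairs) and −0.09 ± 0.08 for F minus V (adjusted p = 0.511).

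The other was Atp5k (ENSMUSG00000050856, chr5:108433244-108434448, minus strand, GRCm38), the e subunit of ATP synthase, which lies in the membrane part and helps the enzyme form dimers. It had 829, 1014 and 919 normalized counts in E and 589, 735 and 798 in EF. In V it had 747, 844 and 696, and in F 680, 791 and 939. The EF and E samples did not overlap, and the V and F samples did. The change was −0.39 ± 0.10 for EF minus E (adjusted p = 0.0365, lower in 3 of 3 pairs), 0.07 ± 0.10 for F minus V (adjusted p = 0.708) and 0.27 ± 0.10 for E minus V (adjusted p = 0.468). EF minus E and E minus V share the E samples. The difference between the fulvestrant effects with and without E2 was −0.45 ± 0.15 for Atp5k and −0.21 ± 0.11 for Ndufa6, and neither passed the test (adjusted p = 0.944 for both). Both calls were lost without the block (adjusted p = 0.553 for Atp5k and 0.297 for Ndufa6). With no member called at all, they were also lost without a variance trend and without E replicate 2 or 3, EF replicate 1, 2 or 3, or replicate 2 of all groups. Without replicate 1 of all groups, or without E replicate 1, 2 members were again called lower, but these were Cox7a2l and Ndufa3. Ndufa6 alone was also lost without replicate 3 (adjusted p = 0.0762) and when only E and EF were fitted (adjusted p = 0.0541). In all, the call of Atp5k was lost in 10 and that of Ndufa6 in 12 of 23 alternatives.

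Cox7a2l, which links complexes III and IV into supercomplexes, also fell by a small amount. It had 1835, 2568 and 2407 normalized counts in E and 1654, 2045 and 2038 in EF. Its change of −0.24 ± 0.06 passed on adjusted p (0.0358) but not on fold change. Averaged over both fulvestrant comparisons, 0 of 78 members passed both limits in limma, against 15.5% of all genes, and 7 had an unadjusted p under 0.05 (39.4% of all genes did). In limma, on adjusted p alone, Cox7a2l (−0.18, adjusted p = 0.0134), Ndufa6 (−0.19, adjusted p = 0.0267) and Ndufv3 (−0.20, adjusted p = 0.0192) passed this average. These were 3 of 78 members, a smaller share than the 28.4% of all genes that passed the same limit. Ndufv3, a small accessory subunit of the NADH-oxidizing arm of complex I, was chosen after its values were seen. It had 1046, 1269 and 1141 normalized counts in E, 854, 979 and 1054 in EF, 941, 1163 and 1020 in V, and 944, 918 and 954 in F. None of the 78 members moved the same way in all 6 fulvestrant pairs.

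**Figure D2:**
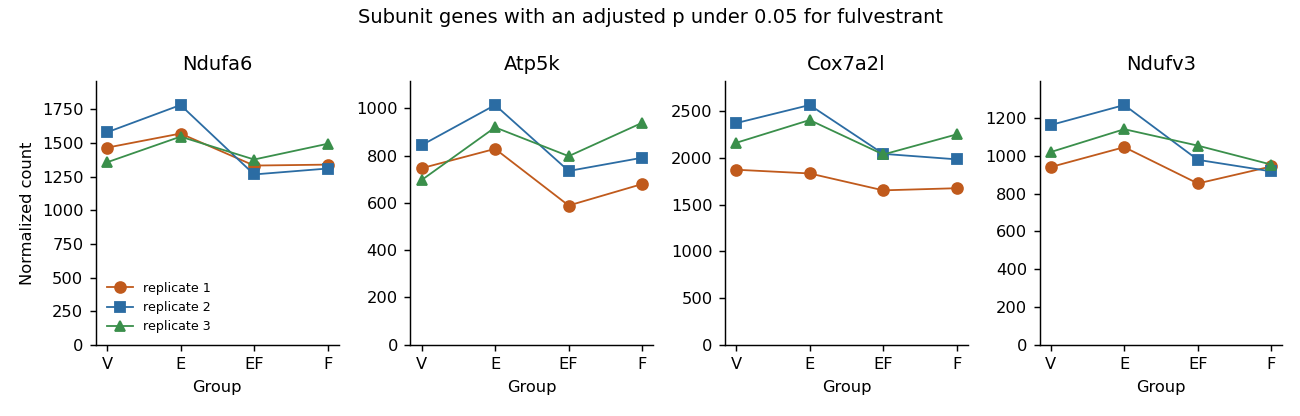
Normalized counts of the 4 members with an adjusted p under 0.05 in EF minus E or in the average fulvestrant effect, by group, with lines joining samples of the same replicate number. For Ndufa6 and Atp5k the 3 EF points lie below the 3 E points, and the F and V points overlap.

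None of the core subunits named next, which carry the redox centers and catalytic sites or sit beside them, was called in a treatment comparison. Ndufs1, the largest iron-sulfur subunit of complex I, had 2329, 2142 and 2029 normalized counts in V, 2289, 2221 and 2040 in E, 2245, 2149 and 1983 in EF, and 2260, 2167 and 2133 in F. All 4 groups overlapped. For the core complex I genes Ndufs1, Ndufs3, Ndufs7, Ndufs8, Ndufv1 and Ndufv2, EF minus E ran from −0.14 (Ndufs3) to 0.03 (Ndufs7) and F minus V from −0.06 (Ndufs3) to 0.13 (Ndufs7). None passed the test.

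In complex II, Sdha, the flavoprotein that oxidizes succinate, had 4465, 4195 and 3998 normalized counts in V, 4359, 4472 and 4419 in E, 4390, 4112 and 4150 in EF, and 4642, 3941 and 4212 in F. The groups overlapped. Sdhb, the iron-sulfur subunit, and the membrane anchors Sdhc and Sdhd changed by 0.02, −0.07 and −0.07 in EF minus E and by 0.09, 0.03 and 0.03 in F minus V, with 0 of 4 called in either.

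In complex III, Uqcrfs1, the Rieske iron-sulfur protein, had 765, 1013 and 842 normalized counts in V, 751, 1009 and 928 in E, 782, 1013 and 912 in EF, and 793, 1036 and 1104 in F. Its change was 0.01 ± 0.07 in EF minus E and 0.16 ± 0.07 in F minus V (adjusted p = 0.927 and 0.169). The core proteins Uqcrc1 and Uqcrc2 changed by 0.02 and −0.02 in EF minus E. In complex IV, Cox5a and Cox5b, which sit beside the catalytic core, changed by −0.001 and −0.07. In complex V, Atp5b had 11947, 15445 and 14239 normalized counts in V, 11914, 17935 and 16624 in E, 13022, 16757 and 16999 in EF, and 12366, 16471 and 18186 in F. Its changes of 0.02 ± 0.07 in EF minus E and 0.17 ± 0.07 in F minus V did not pass (adjusted p = 0.881 and 0.139). The alpha and gamma subunits, Atp5a1 and Atp5c1, changed by −0.03 and −0.15 in EF minus E.

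For most members the data bound the change closely. The 95% interval of the change lay within 1.5-fold in both directions for 74 of 78 members in EF minus E and in F minus V, and for 76 in E minus V and in EF minus F. In EF minus E the exceptions were Atp5k and the low genes Cox6b2, Cox8b and Ndufs5. The median half-width was 0.17 on the log2 scale, against 0.20 for all genes.

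Fulvestrant without added E2 (F minus V) called 0 of 78 members in limma, against 12.5% of all genes (6.76% higher and 5.69% lower), and 1 member had an unadjusted p under 0.05 (30.5% of all genes did). The median change was 0.05, against 0.01 for all genes, with 56 of 78 above 0. This direction rested on replicate 3, where the median difference was 0.23 and 75 of 78 members were higher, whereas the medians in replicates 1 and 2 were −0.05 and −0.05. Without V replicate 3 the median was −0.01, and without F replicate 3 it was −0.02.

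E2 without fulvestrant (E minus V) also called 0 of 78 members in limma, against 0.0756% of all genes (10 genes, all higher), and 17 members had an unadjusted p under 0.05 (10.1% of all genes did). Small positive values were widespread, with 74 of 78 members above 0 and a median of 0.12 against 0.01 for all genes. Complex II had the lowest median (0.05) and complex V the highest (0.15), with 0.13, 0.12 and 0.13 in complexes I, III and IV. The values were positive in all 3 pairs for 41 members (52.6%, against 21.7% of all genes). The median difference was 0.05, 0.13 and 0.21 in replicates 1, 2 and 3. The groups did not overlap for 3 members, or 3.85%, against 5.19% of all genes. Without V replicate 3 the median was 0.07. In that sample 77 of 78 members lay below the mean of the replicate 3 samples (median deviation −0.14), and it was also the deepest, with 44040507 reads on listed genes against 18827792 to 36756037 in the others.

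In EF minus E the groups did not overlap for 13 members, all lower in EF (16.7%, against 6.54% of all genes apart and lower and 12.5% apart in either direction). E2 in the presence of fulvestrant (EF minus F) called 0 of 78 members and 0.0% of all genes in limma, with 1 member and 1.93% of all genes under an unadjusted p of 0.05, a median of 0.01 and 41 of 78 above 0. The EF and F samples did not overlap for 2 members (2.56%, all genes 2.42%). For the difference of the fulvestrant effects with and without E2, 75 of 78 members were below 0 (median −0.12, all genes −0.004). The median was −0.06 without V replicate 3 or F replicate 3, −0.22 without replicate 1, and −0.03 without replicate 3, with 24 of 78 then above 0. No member and no other gene passed that test in limma, and 3 members had an unadjusted p under 0.05 (3.79% of all genes did).

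The small shared shifts ran alongside those of other short transcripts. Of the members, 46 of 78 (59.0%) had a principal transcript under 1 kb, against 11.1% of all genes. The 1461 listed genes of that length had a median of 0.05 in E minus V and −0.04 in EF minus E, against 0.01 and 0.02 for longer genes. Of the 76 cytosolic ribosomal protein genes, 76 were above 0 in E minus V (median 0.15) and 0 in EF minus E (median −0.17). The 76 mitochondrial ribosomal protein genes had medians of 0.09 and −0.02, and none was called in either comparison (0.0756% and 9.6% of all genes were). The part of transcript length or depth in the members' shifts was not tested.

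The mitochondrial genome encodes further subunits of complexes I, III, IV and V. Of the 13 such genes, 7 were analysed here, which belong to complexes I, III and IV, and all 7 had positive values in both fulvestrant comparisons. In the average fulvestrant effect 5 of 7 rose (7.71% of all genes were called higher), namely mt-Nd1 (0.31 ± 0.07, adjusted p = 0.0102), mt-Nd2 (0.30 ± 0.07, adjusted p = 0.00771), mt-Nd5 (0.27 ± 0.07, adjusted p = 0.0107), mt-Nd6 (0.35 ± 0.11, adjusted p = 0.0323) and mt-Co1 (0.31 ± 0.08, adjusted p = 0.0154). For mt-Nd4 and mt-Cytb the values were 0.24 and 0.26, with adjusted p of 0.0147 and 0.0156 but a fold change under the limit. The median of the 7 was 0.30, against −0.01 for the 78 nuclear members. With E2 present (EF minus E) the median was 0.27 and 0 of 7 were called, and without it (F minus V) the median was 0.33 and 3 of 7 were called, where 6.76% of all genes were called higher. The difference between the nuclear and the mitochondrially encoded lists was not tested.

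The complex I gene mt-Nd1 had 22597, 25947 and 26067 normalized counts in V, 25097, 24261 and 31024 in E, 35571, 28699 and 32224 in EF, and 29452, 33092 and 32506 in F. The F samples were all above the V samples, whereas E replicate 3 lay above EF replicate 2. It was higher in 6 of 6 fulvestrant pairs. The complex IV gene mt-Co1 had 63445, 71193 and 72788 in V, 67832, 59816 and 78416 in E, 88402, 81193 and 85511 in EF, and 81944, 86513 and 85557 in F. Both fulvestrant groups lay above their controls with no overlap.

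The summed value of the 7 genes divided by that of the 78 nuclear members was 1.63, 1.34 and 1.52 in V, 1.72, 1.08 and 1.45 in E, 2.24, 1.57 and 1.60 in EF, and 2.09, 1.72 and 1.5 in F. It was higher with fulvestrant in 5 of 6 pairs, the exception being F against V in replicate 3 (1.5 against 1.52). The call of 5 genes depended on the fit, with 0 called without the block, 3 under quantile normalization or scaling to the listed total, and 0 to 7 when samples or replicate numbers were left out. It was 0 without replicate 2, 1 without replicate 1, E replicate 2, EF replicate 1 or F replicate 2, and 3 without V replicate 1 or E replicate 1. In F minus V the 3 calls became 0 without V replicate 1, 2 or 3, F replicate 2 or 3, replicate 2 or replicate 3, without the block and under either other scaling, and 1 without EF replicate 2. The libraries were depleted of ribosomal RNA. The residual mitochondrial rRNA mt-Rnr1 ranged from 273.7 to 2361 normalized counts between samples and passed no fulvestrant test, and its part in the result was not tested.

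**Figure D3:**
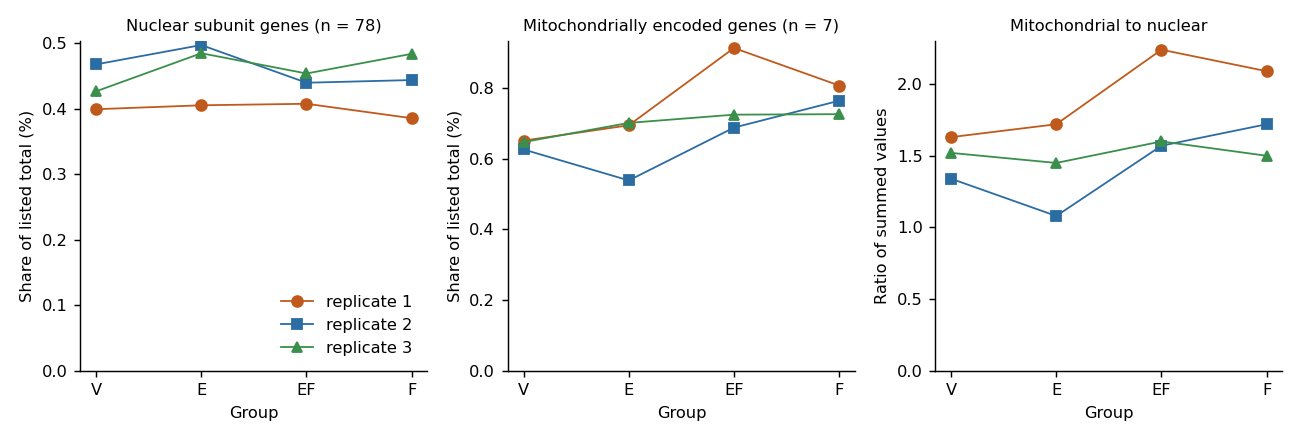
Share of the listed total taken by the 78 nuclear members and by the 7 mitochondrially encoded genes, and the ratio of their sums, in each of the 12 samples, with lines joining samples of the same replicate number. The nuclear share runs from 0.385% to 0.497% and the mitochondrial to nuclear ratio from 1.08 to 2.24, highest in EF replicate 1.

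Several genes that act on the chain without being subunits were called. Among 20 biogenesis regulators, Ppargc1a, which encodes the coactivator PGC-1α of mitochondrial biogenesis, had 484.1, 178.3 and 176.1 normalized counts in V, 411.3, 178.4 and 157.0 in E, 239.3, 103.6 and 116.9 in EF, and 285.7, 113.2 and 92.4 in F. Replicate 1 was high in every group, and fulvestrant lowered the value in 6 of 6 pairs. The log2 change was −0.66 ± 0.13 for EF minus E (adjusted p = 0.00718) and −0.78 ± 0.13 for F minus V (adjusted p = 0.0024). The average effect of −0.72 lost its call without the block (adjusted p = 0.52) and kept it when any 1 sample, or any 1 replicate number, was omitted. Ppard, a nuclear receptor for fatty acids, was the only other regulator called in the average effect (0.27, adjusted p = 0.00772), which makes 2 of 20 regulators called where 15.5% of all genes were. Polg, the mitochondrial DNA polymerase, rose in EF minus E (0.31, adjusted p = 0.00438). Their calls were lost in 12 and 4 of 23 alternatives. The regulators Nrf1, Gabpa, Tfam and Esrra, which lie outside the naming rule and were chosen after their values were seen, had average effects of 0.06, −0.03, 0.11 and −0.11, and none passed.

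Among 12 genes of pyruvate entry, Pdk4, a kinase that switches off pyruvate dehydrogenase, rose. It had 810.6, 1202 and 1090 normalized counts in V, 973.5, 1054 and 1134 in E, 1682, 1950 and 1906 in EF, and 1754, 1936 and 1863 in F, so that fulvestrant and control samples did not overlap. Its change was 0.81 ± 0.08 in EF minus E (adjusted p = 0.000163) and 0.86 ± 0.08 in F minus V (adjusted p = 0.000118). In the average effect 2 of the 12 rose and 2 fell (7.71% and 7.81% of all genes). Pdk3, another kinase of that enzyme, fell (average −0.29, adjusted p = 0.00545), and Pdp1, the phosphatase that reactivates it, rose (0.33, adjusted p = 0.0269). The call of Pdk4 held in 23 of 23 alternatives, whereas those of Pdk3 and Pdp1 were lost in 5 and 10, and the Pdp1 change was 0.13 without replicate 1. None of the 13 citrate cycle genes was called in a treatment comparison in the fit reported here. Of all genes, 9.6% were called in EF minus E, 12.5% in F minus V, 0.0756% in E minus V and 15.5% in the average effect. Under the alternatives, up to 2 citrate cycle genes were called in F minus V and in the average effect.

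**Figure D4:**
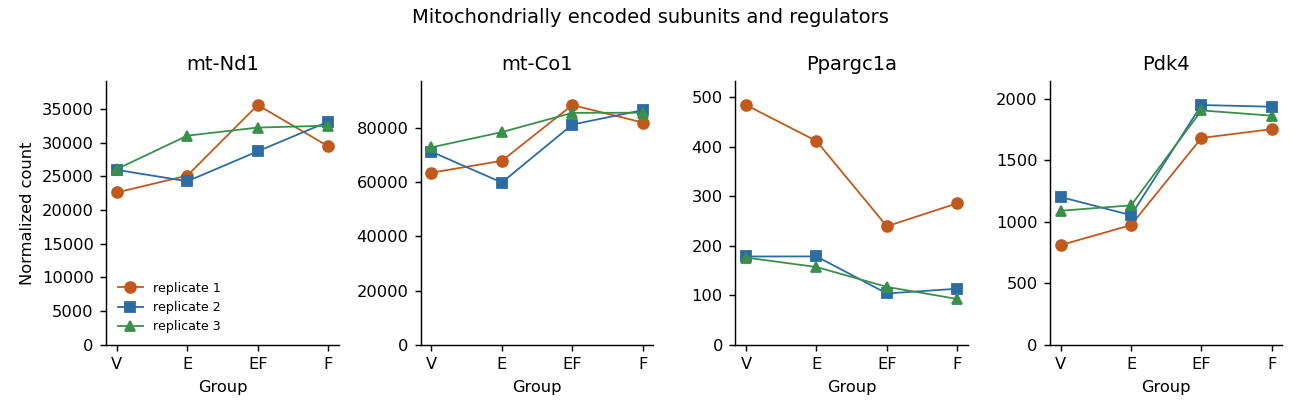
Normalized counts of mt-Nd1, mt-Co1, Ppargc1a and Pdk4 by group, with lines joining samples of the same replicate number. Fulvestrant samples (EF, F) lie above V and E samples for mt-Co1 and Pdk4, and Ppargc1a is lower with fulvestrant in each replicate.

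Other subunits and carriers that the symbol rule did not match numbered 7. Cycs, which encodes cytochrome c, the carrier between complexes III and IV, was called in the average fulvestrant effect only (0.27 ± 0.08, adjusted p = 0.0211). Its normalized counts were 657.3, 1047 and 911.2 in V, 683.6, 1100 and 1042 in E, 787.8, 1205 and 1317 in EF, and 655.0, 1265 and 1463 in F, and the call was lost under 11 of 23 alternatives. Among the assembly factors, 2 of 5 for complex III changed in EF minus E, in opposite directions (9.6% of all genes were called). Uqcc2 rose by 0.29 (adjusted p = 0.0369), and Bcs1l, which inserts the Rieske protein, changed by −0.29 (adjusted p = 0.045). Of 4 factors for complex V, Tmem242 fell (−0.28, adjusted p = 0.0281), and Higd1a, the 1 of 22 for complex IV called in the average effect, where 15.5% of all genes were called and 7.71% were higher, rose by 0.38 (adjusted p = 0.0141). The Higd1a call was lost without the block (adjusted p = 0.8), without replicate 2 (0.34, adjusted p = 0.139) and without replicate 3 (0.24, adjusted p = 0.207). The calls of Uqcc2, Bcs1l and Tmem242 were lost in 12, 15 and 8 of 23 alternatives. In the fit reported here, none of 17 factors for complex I and none of 4 for complex II was called in EF minus E or F minus V. Of all genes, 9.6% were called in EF minus E and 12.5% in F minus V. At most 1 factor of either list was called under any alternative.

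More members were called by replicate number than by treatment. Replicate 1 against the mean of replicates 2 and 3, over all 4 groups, gave 32 members lower and 3 higher, where 52.4% of all genes were called, 27.0% lower and 25.4% higher. An unadjusted p under 0.05 was reached by 55 members, and by 72.3% of all genes. The median member was −0.23 and the median gene −0.02. By complex, 9 of 37 members were lower in complex I, 2 of 4 in complex II, 6 of 8 in complex III, 9 of 12 in complex IV and 6 of 17 in complex V. The study's methods report batch variation, and the labels do not say what a replicate number stands for, so cell preparation and library batch cannot be told apart. Replicate 1 is 1 unit in this contrast, and its samples in the 4 groups cannot be counted as independent repeats of it. The p-values of the contrast rest on the spread within replicate numbers and do not measure the spread between them.

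A pair of condition or tissue isoforms moved in the opposite direction to their partners. Ndufa4l2 (chr10:127514967-127517154, GRCm38), a hypoxia-induced relative of Ndufa4, had 233.8, 248.6, 213.7 and 297.6 normalized counts in replicate 1 of V, E, EF and F. In the other 8 samples it had 49.6 to 84.3, with no overlap. The change was 1.97 ± 0.14 (adjusted p = 5.45e-07), whereas Ndufa4, which is named with complex I but is known as a subunit of complex IV, was lower in replicate 1 (−0.54 ± 0.06, adjusted p = 1.03e-05). Per kilobase, Ndufa4l2 amounted to 7.87% to 12.8% of Ndufa4 in replicate 1 and to 1.28% to 2.15% in replicates 2 and 3.

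Cox6b2 (chr7:4751792-4753094, GRCm38), the testis form of a complex IV subunit, had 163.2, 183.5, 128.0 and 96.7 normalized counts in replicate 1 of V, E, EF and F and 23.4 to 47.9 in the other samples. The change was 1.99 ± 0.16 (adjusted p = 1.45e-06), and its ubiquitous partner Cox6b1 was lower (−0.44 ± 0.05, adjusted p = 1.18e-05). The share of Cox6b2 in Cox6b1 per kilobase was 5.54% to 9.74% in replicate 1 and 0.917% to 1.94% elsewhere. Fulvestrant against control gave −0.45 ± 0.22 with E2 and −0.37 ± 0.22 without for Cox6b2 (adjusted p = 0.21 and 0.289), and 0.07 ± 0.19 and 0.30 ± 0.19 for Ndufa4l2 (adjusted p = 0.858 and 0.315). Neither isoform passed a treatment test.

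**Figure D5:**
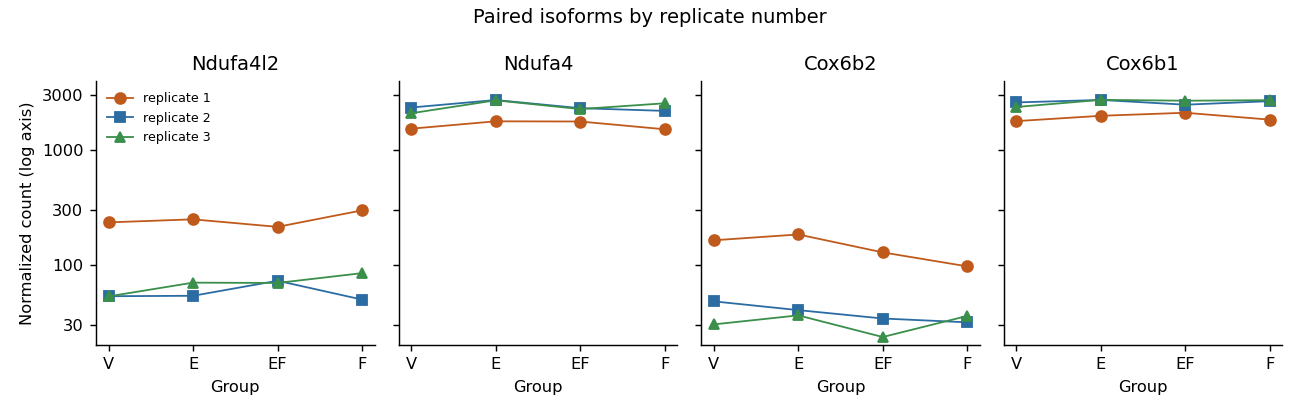
Normalized counts (log axis) of Ndufa4l2 and Cox6b2 and of their partners Ndufa4 and Cox6b1 by group, with lines joining samples of the same replicate number. Replicate 1 lies above the other replicates for Ndufa4l2 and Cox6b2 and below them for Ndufa4 and Cox6b1 in every group.

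The third member higher in replicate 1 was Atp5s, a factor related to the coupling of ATP synthase. It had 380.5, 341.3, 322.0 and 337.8 normalized counts in replicate 1 of V, E, EF and F and 194.6 to 239.2 elsewhere (0.67 ± 0.07, adjusted p = 8.46e-06). The members furthest below were Uqcrq, a small subunit of complex III (−0.71 ± 0.10, adjusted p = 8.35e-05), and the complex IV genes Cox5a (−0.65 ± 0.10, adjusted p = 0.000223), Cox6c (−0.61 ± 0.05, adjusted p = 1.87e-06) and Cox8b (−0.59 ± 0.22, adjusted p = 0.0354). The Cox8b call was lost in 7 of 17 alternatives, with the change at −0.32 without EF replicate 1 (adjusted p = 0.199). Uqcrq had 778.6, 822.6, 836.1 and 620.2 in replicate 1 and 1001 to 1489 elsewhere. Cox8b had only 9.85 to 42.8 normalized counts in any sample, and its groups of replicates overlapped. Cytosolic ribosomal protein genes were lower in replicate 1 as well (63 of 76), as were genes under 1 kb (median −0.32, longer genes 0.01). The listed endothelial marker was 58.5 to 83.7 in replicate 1 and 157.0 to 276.5 in the others, and its part in the differences was not tested.

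The proportions of the remaining isoform pairs overlapped between replicate 1 and the others. Cox7a2l stood at 87.9% to 116% of Cox7a2 per kilobase, and Cox8b at 0.839% to 3.09% of Cox8a. The c-ring genes of ATP synthase encode the same mature protein, and Atp5g1 and Atp5g2 stood at 7.01% to 9.17% and 25.3% to 35.0% of Atp5g3. Atp5g2 shared 86.4% of its windows with other transcripts, and 11 of the 78 members shared over 15%. The highest of the others were Atp5l (61.3%), Cox7c (44.4%) and Ndufb4 (33.4%), and the levels of these genes are uncertain. The 4 pseudogenes had mean normalized counts of 16.5 to 61.0, none was called in a treatment comparison, and their reads may come from the parent genes.

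Because Ndufa6 and Atp5k were called in EF minus E and Cox6b2 differed by replicate, the sequence before their start sites is shown. RefSeq windows of 300 bases, from 250 before to 50 after the start on GRCm38.p6, matched 64 of the 78 members by symbol, and motifs were searched on both strands. The bases below are those before both the RefSeq and the GENCODE start, 5′ to 3′ on the gene's strand, except in the short Atp5k stretch, which runs past the GENCODE start, and capitals mark a match to the NRF1, ETS or YY1 motif. Ndufa6 is chr15:82354323-82354541, Atp5k chr5:108434449-108434649 with the 30 bases around its NRF1 match at chr5:108434430-108434459, and Cox6b2 chr7:4753095-4753344, all on the minus strand.
Ndufa6: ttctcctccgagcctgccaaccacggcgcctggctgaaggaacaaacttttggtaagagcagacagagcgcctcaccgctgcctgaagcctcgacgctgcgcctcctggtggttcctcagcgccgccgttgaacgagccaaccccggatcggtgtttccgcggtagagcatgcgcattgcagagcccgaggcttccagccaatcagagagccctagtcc
Atp5k: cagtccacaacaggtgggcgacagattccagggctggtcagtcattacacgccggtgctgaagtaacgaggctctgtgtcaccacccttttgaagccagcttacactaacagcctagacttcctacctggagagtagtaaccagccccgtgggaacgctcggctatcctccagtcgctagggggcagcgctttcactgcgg
Atp5k, NRF1 match: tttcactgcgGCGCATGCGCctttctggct
Cox6b2: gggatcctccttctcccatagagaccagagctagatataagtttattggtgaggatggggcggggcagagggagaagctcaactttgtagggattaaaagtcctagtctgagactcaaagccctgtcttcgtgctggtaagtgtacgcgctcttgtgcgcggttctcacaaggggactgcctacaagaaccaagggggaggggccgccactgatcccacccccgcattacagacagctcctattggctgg
NRF1, a regulator of nuclear genes for the chain, binds GCGCANGCGC. These letters were found in 17 of 64 member windows (26.6%) and in 12.1% of the 9439 listed genes with a window. The match in Atp5k spans positions −50 to −41 from the RefSeq start, and Ndufa6 has one at 23 to 32 after it, outside the printed stretch. The YY1 motif AAGATGGCG was in 7 members (10.9%, all genes 3.76%) and the ETS motif CCGGAAGT in 5 (7.81%, all genes 9.68%). The estrogen response element GGTCANNNTGACC was in 0 of 64 members and 0.0106% of all windows. The ESRRA motif TCAAGGTCA was in 2 members (3.12%, all genes 0.318%), and the hypoxia response core ACGTG in 15 (23.4%, all genes 29.7%) but in none of the 3 genes shown. A match is a run of letters and not a measured binding site.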

How the data were processed

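Total RNA depleted of ribosomal RNA was sequenced from 12 cultures. Per the labels and the methods, the authors trimmed reads with Trimmomatic 0.39, aligned them to mm10 with STAR 2.5.2, counted with HTSeq 0.13.5, removed counts under 10 and scaled by DESeq2 1.37 (median of ratios). The deposited values are these normalized counts, a signal with no length correction. The methods also report removal of rRNA reads with SortMeRNA and reduction of batch effects with ComBat_seq and limma. They do not say whether the deposited values precede or follow the batch step. Reads were counted by strand (reverse). The step between low values put 18827792 to 44040507 reads on the listed genes of each sample.

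Symbols, lengths and positions came from GENCODE M21 (13154 of 13233 identifiers matched) and start-site sequences from RefSeq (GRCm38.p6). Values were tested as log2(value + 1) with limma 3.58.1 in R 4.3.3, 4 group means and the replicate number as a block in 1 fit, a variance trend, two-sided, and Benjamini-Hochberg adjustment over all 13233 genes. A change was called at adjusted p under 0.05 and fold change over 1.2. Over 18 same-numbered pairs the deviations from group means correlated at 0.63 to 0.923, above the limit of 0.1 set for treating the numbers as pairs. Samples numbered 2 and 3 correlated with each other as strongly (0.632 to 0.792 between groups), so these values set replicate 1 apart and do not show that 2 pairs with 2 or 3 with 3. Counts over same-numbered pairs rest on that numbering. The average fulvestrant effect is the mean of EF minus E and F minus V. The script was tested on simulated data. Members, gene lists and naming rule (called members with the largest changes, core subunits, isoform pairs, the highest and lowest of each complex, and up to 3 called genes a list) were chosen with earlier results of these data known. A gene that this rule covers is not reported here.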

Additional observations from a re-analysis of the deposited data

How the results depend on the processing

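The members' calls and medians, the calls in the other lists and the named genes' changes were recomputed under 23 alternatives for the treatment comparisons and 17 or 18 for the replicate contrast. Counts over pairs and overlaps were not. No value with a called change reversed. The 2 members lower in EF minus E became 0 with no replicate block, 0 with no variance trend, 1 when only the compared groups were fitted and 4 under quantile normalization (Atp5k, Cox7a2l, Ndufa6 and Ndufv3), and 0 to 2 when samples or replicate numbers were left out, the 2 being Cox7a2l and Ndufa3 without replicate 1 or E replicate 1. The members higher in F minus V were 0 to 2 in those refits (Ndufa12 and Uqcrq without replicate 1), and those lower in the average fulvestrant effect 0 to 3, and 3 on adjusted p alone. The 32 members lower in replicate 1 became 50 on adjusted p alone, 23 under quantile normalization and 25 scaled to the listed total. The mitochondrially encoded genes called higher in F minus V (3) became 0 with no replicate block, with the compared groups only, with no variance trend and under both other scalings, and 0 to 3 in the refits with samples left out. For the average effect (5) they became 0 with no replicate block, 3 under quantile normalization and 3 scaled to the listed total, and 0 to 7 with samples left out. These counts of the mitochondrially encoded genes and the values of genes and lists outside the members were added to the alternatives after seeing the data. The cause of each move was not tested.

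The number of calls over all genes depended on whether the replicate number was fitted as a block. With no replicate block, EF minus E gave 31 genes higher and 38 lower in place of 658 and 612, F minus V 40 and 32 in place of 895 and 753, and the average effect 150 and 160 in place of 1020 and 1034. Fitting the compared groups only gave 362 higher and 330 lower in F minus V, and 43 and 14 in place of 10 and 0 in E minus V. Scaling to the listed total gave 702 higher and 958 lower in F minus V. On adjusted p alone the average effect gave 2100 and 1652. The members' median changed sign when samples were left out in F minus V (−0.05 to 0.10), EF minus F (−0.04 to 0.06) and the average effect (−0.06 to 0.02), and kept its sign in E minus V (0.07 to 0.16), EF minus E (−0.12 to −0.03) and the difference of the fulvestrant effects (−0.22 to −0.03). The planned edgeR test was not run. The deposited values are normalized, and the reads recovered from the step between low values were used for depth only. Depth limits Ndufs5, Cox8b and Cox6b2, the 3 members with a mean under 100.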
